A study of Mus musculus
Rattus norvegicus and Mus musculus and Rattus norvegicus with 95 samples.

Results

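The comparison set single cells labelled as lung against single cells labelled as somatic testis, all derived from the mouse-rat allodiploid embryonic stem cell (AdESC) line RM2-1 after it had contributed to a rat chimaera. Allodiploid cells carry a mouse and a rat genome in the same nucleus. The members were chosen by column name alone, as the 4 cells of RM2-1 lung and the 20 cells of RM2-1 somatic testis, which make 24 of the 87 single cells of the series, whose samples number 95 in all. The 6 single cells of the undifferentiated RM2-1 AdESC line are given beside them as the stem cells of the same line; their label places them in the G0/G1 stage. All 3 groups come from the same line, and the labels name no animal, age, sex or treatment. How the line's cells were picked out from the cells of the rat host is not given in the sources used here. Each group is 1 sample, and its cells are not replicates of a condition, so every comparison below is a description with no test, standard error or p-value.

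Mesenchymal cells of an organ's stroma share a program of intermediate filaments, matrix proteins and matrix receptors. Some of them, such as the myofibroblasts of lung and the myoid cells around the seminiferous tubules, add smooth muscle actin-binding proteins and contract. Steroid-making cells of the gonads and the adrenal import cholesterol into mitochondria, where its side chain is cut to give pregnenolone, the parent of the steroid hormones. Cholesterol itself is made from acetyl-CoA through the mevalonate pathway, which nearly all dividing cells can run.

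Expression was given as FPKM, a count of fragments scaled by transcript length and by the number of mapped fragments, for 13926 genes with a mouse and a rat homologue. Lung cells are numbered 1 to 4 and values of a gene follow that order, while the testis cells are given by their lowest, median and highest value. The columns name the sample and not the cell, so these numbers are only names. Summed FPKM per cell ran from 264821 to 352229 in lung and from 272134 to 406708 in testis, and genes at 1 FPKM or more numbered 4302 to 5198 in lung cells and 4384 to 5873 in testis cells. Read depth is unknown, because FPKM does not keep it. A gene listed at 0 in a cell may be absent or may have been missed.

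The label was checked against markers before anything else. Of 27 markers of lung epithelium 21 were in the table, and 16 of these were listed at 0 in all 4 lung cells. Sftpc, Sftpd and Scgb1a1, secreted products of alveolar and airway epithelium, and the epithelial adhesion genes Epcam and Cdh1 were among those at 0, and they were at 0 in all testis cells too. Nkx2-1, the transcription factor of lung epithelium, did not pass 0.18 FPKM in a lung cell. The summed FPKM of the epithelial list was 418, 177, 1179.7 and 14.7 in the lung cells and ran from 36.7 to 575 in testis cells. In lung cells 1 to 3 nearly all of it came from Pdpn, a surface glycoprotein that stromal cells also carry, which had 401, 175, 1179.7 and 0.353 FPKM in lung cells and 23.5, 122 and 529 FPKM in testis cells. Endothelial Pecam1 and Cdh5, leukocyte Ptprc and Tyrobp and germ cell Dazl were at 0 in every lung cell, and Ddx4, the germ cell helicase, did not pass 0.459 FPKM in them. The cells are called lung cells below after their label alone.

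Other members of those lists were found in single lung cells. The endothelial list, with 13 of 15 measured genes at 0 in all lung cells, summed to 0, 0.0649, 0.0276 and 43.3 FPKM in lung cells and to between 0.058 and 35.8 FPKM in testis cells. Nearly all of the sum in cell 4, which was above every testis cell, came from Emcn, the surface sialomucin endomucin, with 0, 0, 0 and 43 FPKM in lung cells and 0, 0 and 25.3 FPKM in testis cells. The leukocyte list, with 10 of 14 genes at 0 in all lung cells, summed to 11.9, 30.4, 0 and 9.96 FPKM in lung cells and to between 0 and 30.4 FPKM in testis cells, whose median was 0.0902 FPKM. Cd14, a receptor for bacterial lipopolysaccharide, made up most of it in cells 2 and 4 and had 0.45, 25.1, 0 and 9.96 FPKM in lung cells and 0, 0 and 30.4 FPKM in testis cells. Cd68, a lysosomal glycoprotein of macrophages, made up most of it in cell 1, at 10.9 FPKM. The germ cell list, with 12 of 16 genes at 0 in all lung cells, summed to 98.1, 27.9, 0.945 and 83.2 FPKM in lung cells and to between 3.13 and 173 FPKM in testis cells, and in cells 1 and 4 it came almost wholly from Uchl1, a ubiquitin hydrolase that neurons also carry. Their part in the results below was not tested.

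Some markers of lung mesenchyme were found in single lung cells. Fgf10, a growth factor of distal lung mesenchyme, had 34.6, 0, 0 and 0 FPKM in lung cells and 0, 0 and 3.2 FPKM in testis cells. Tbx5, a T-box factor of lung and heart mesenchyme, had 20.6, 0, 0 and 0 FPKM in lung cells, against 0, 0 and 1.91 FPKM in testis cells. In both genes cell 1 stood above all 20 testis cells and the other 3 lung cells were at 0. Over the 19 measured genes of the lung mesenchyme list the score, which is the mean log2(FPKM + 1) of the members in a cell, was 1.50, 0.96, 0.62 and 0.64 in lung cells and 0.48, 0.98 and 1.46 in testis cells. Cell 1 was above every testis cell in this score and cells 2 to 4 lay within the testis range. The list had 12 members with a mean of both group means of at least 1 FPKM. Of these, 4 were higher in the lung mean of log2(FPKM + 1) than in the testis mean, and 8 were lower. The median difference was -0.20, and the largest was -1.42, for Pdgfra, a growth factor receptor. Among all tested genes 40.4% were above 0 and 59.6% below.

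Lung cells 2 and 3 went against the label in another way. They held high levels of the steroidogenic gene Cyp11a1 and of Inha, the inhibin alpha subunit, which were at or near 0 in lung cells 1 and 4 and in the testis cells, as described further on. The Leydig cell list, of which 13 of 15 genes were measured, summed to 14.3, 2892, 2064 and 36.3 FPKM in the lung cells and to between 18.3 and 159.5 FPKM in testis cells. In cells 2 and 3 most of the sum came from Cyp11a1 itself, at 2242 and 1868 FPKM. Cells 2 and 3 were also the farthest from the testis cells over the genes tested. Pearson's r over the 7478 genes tested had a median of 0.655 for lung cell 1 with the 20 testis cells, 0.531 for cell 2, 0.53 for cell 3 and 0.635 for cell 4, whereas the 190 pairs of testis cells had a median of 0.685. Lung cells 2 and 3 correlated at 0.57 with each other and cells 1 and 4 at 0.592. The correlations are given as a description, since the cells of a sample share its preparation and all cells share the lengths of the genes. Cells 2 and 3 also had the lowest values of other, general measures. Cell 2 had the lowest summed FPKM of the 24 lung and testis cells, 264821, and cell 3 the fewest genes at 1 FPKM or more, 4302. The ribosomal protein score was 9.39, 8.82, 8.47 and 9.36 in lung cells and 8.97, 9.51 and 9.79 in testis cells, and the heat shock score 6.19, 5.46, 5.28 and 6.46 in lung cells and 5.55, 6.09 and 6.52 in testis cells. Cells 2 and 3 were thus under all 20 testis cells in both scores, as they were in the mesenchymal, contractile and division scores given below, and the part of these measures in those results was not tested. Results are therefore stated for all 4 lung cells and also without cells 2 and 3, a choice made after the values were seen.

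**Figure D1:**
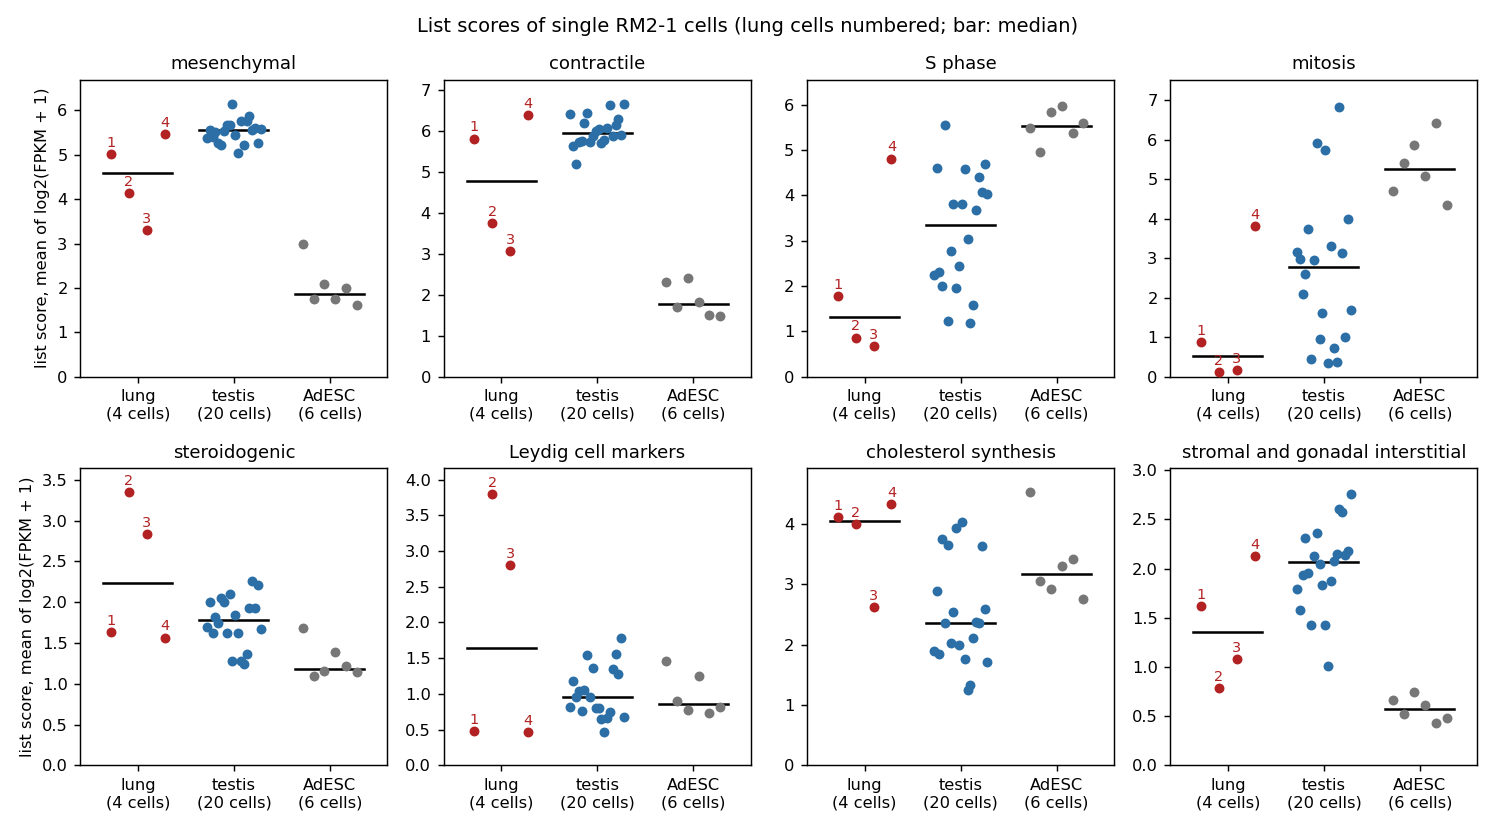
List scores (mean of log2(FPKM + 1) over the measured members, y axes from 0) of every RM2-1 cell, with lung at the left, testis in the middle and AdESC at the right; points are cells, lung cells are numbered, and bars are medians. Lung cells 1 and 4 sit near the testis cells in the mesenchymal and contractile panels, cells 2 and 3 lie below all of them there and above all of them in the steroidogenic and Leydig marker panels, and cell 4 is the only lung cell with a mitosis score above 1.

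Across the genes tested, which had a mean of both group means of at least 1 FPKM, few separated the groups. The difference used throughout is the mean log2(FPKM + 1) of lung cells minus that of testis cells, and a gene counts as higher or lower where it reaches 2, or 4-fold, on that scale. The pseudocount of 1 understates the change of low genes. Of 7478 genes 118 (1.58%) were higher in lung cells and 363 (4.85%) were lower, 6.43% in all, and the median difference of all tested genes was -0.24. Cells of the groups did not overlap for 5 genes (0.0669%), all lower in lung. Among the 118 genes higher in lung, cells 2 and 3 exceeded the highest testis cell in 81 and 78, and cells 1 and 4 in 23 and 22. Without cells 2 and 3, 297 of 7243 genes (4.1%) were higher in lung and 364 (5.03%) were lower, 9.13% in all, with a median difference of -0.10; 32 of the higher and 149 of the lower genes were past the fold both ways of counting. The genes past the fold thus differ in large part with these cells.

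The plot of list medians sets these shifts side by side. Of the 21 lists of pathways and states, cholesterol synthesis had the highest median difference and mitosis the lowest. Leaving out cells 2 and 3 brought the medians of the mesenchymal, contractile, chemokine and mitosis lists to within 0.2 of 0, while the cholesterol synthesis median stayed above 1.5.

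**Figure D2:**
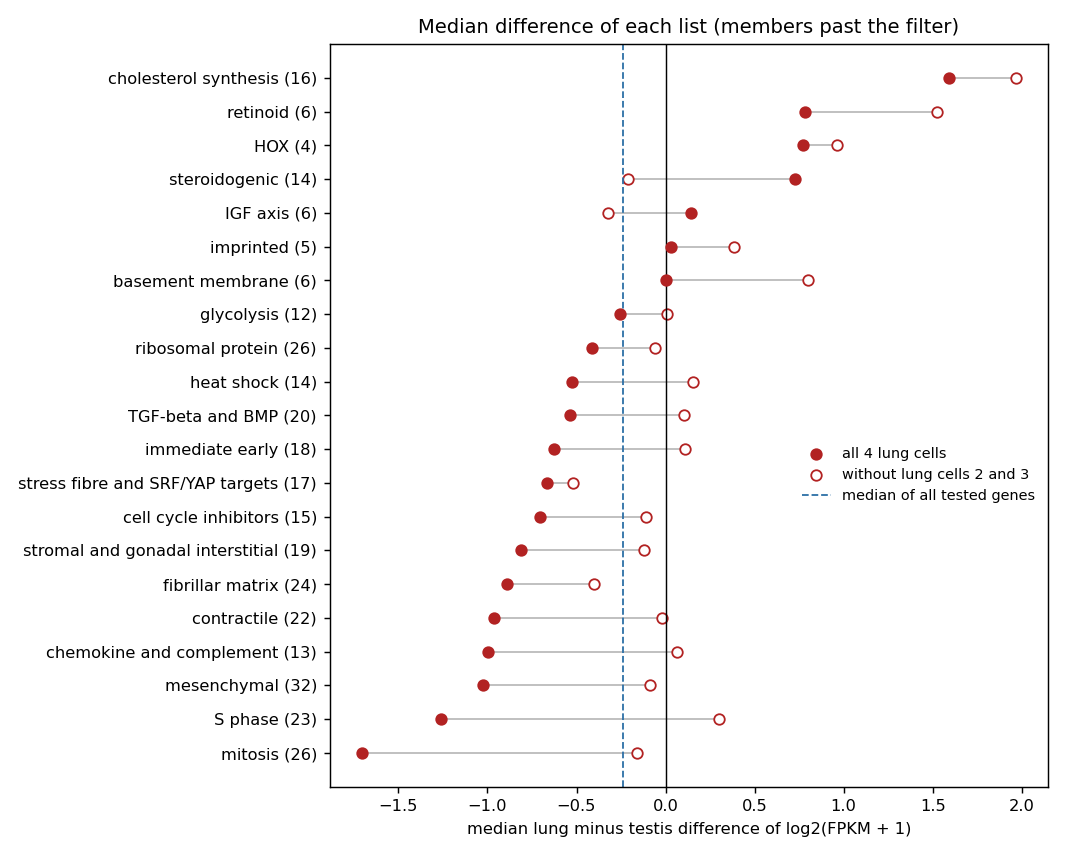
Median lung minus testis difference of log2(FPKM + 1) (x axis) of 21 gene lists (y axis, with the number of members past the filter on low values when all 4 lung cells are used), with all 4 lung cells (filled) and without lung cells 2 and 3 (open). The dashed line is the median of all 7478 tested genes with all 4 lung cells, -0.24, and the solid line is 0; the mitosis list is at -1.70 with all 4 cells and -0.16 without cells 2 and 3, and cholesterol synthesis at 1.59 and 1.97.

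The mesenchymal program was carried by the lung cells as by the testis cells, at a lower level in cells 2 and 3. Its score was 5.02, 4.14, 3.31 and 5.46 in the lung cells and 5.04, 5.55 and 6.15 in the testis cells, and 1.61, 1.87 and 2.99 in the AdESC cells. All lung cells thus scored above all stem cells, cell 4 fell inside the testis range, cell 1 just below it, and cells 2 and 3 well below it. Of 32 members past the filter 2 were higher in lung and 10 lower, against 1.58% and 4.85% of all tested genes. The median was -1.03, where all tested genes had -0.24. Without cells 2 and 3 none was higher and 2 were lower, against 4.1% and 5.03% of all genes, and the median was -0.09.

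The most abundant stromal genes named here were not alike in how far they differed. Sparc, a matricellular glycoprotein, had 1263, 1309, 1024 and 1165 FPKM in lung cells and 553, 1158 and 1803 FPKM in testis cells, so that all 4 lung cells lay within the testis range. Lgals1, which encodes galectin-1, had 1056, 951, 549 and 1372 FPKM in lung cells and 645, 1496 and 2274 FPKM in testis cells. Lung cells 1, 2 and 4 were inside the testis range and cell 3 was just under it. Vim, the mesenchymal intermediate filament vimentin, had 1498, 69.8, 275 and 943 FPKM in lung cells, against 760.4, 1198 and 2918 FPKM in testis cells, with cells 1 and 4 inside the testis range and cells 2 and 3 under its lowest cell.

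Several lower members were low in cells 2 and 3 alone. Cd44, a receptor for hyaluronan, had 88.7, 0.224, 0.0747 and 264 FPKM in lung cells and 65.7, 122 and 241 FPKM in testis cells, a difference of -3.23 with all 4 cells and of 0.31 without cells 2 and 3. The calcium-binding S100a6 had 3629, 50.01, 61.3 and 2274 FPKM in lung cells, against 1397, 2318 and 4472 FPKM in testis cells. Fn1, the matrix glycoprotein fibronectin, had 229.7, 6.35, 0.438 and 258 FPKM in lung cells, against 78.7, 145.19 and 292 FPKM in testis cells. In all 3 genes cells 1 and 4 lay within the testis range or just above it, and cells 2 and 3 lay under every testis cell. The membrane-binding annexins Anxa1 and Anxa2 and the calcium-binding S100a11 followed the same order of cells, with values for cells 2 and 3 of 2.25 and 249 FPKM, 144.84 and 274 FPKM and 435 and 585 FPKM, each under the lowest testis cell.

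Mmp2, a gelatinase, was low in all 4 lung cells, at 0.292, 0.169, 0 and 3.84 FPKM in lung cells and 0.367, 29.6 and 99.7 FPKM in testis cells. Snai1, a repressor of epithelial genes, had 0.742, 4.58, 0 and 0 FPKM in lung cells, against 0, 27.4 and 58.3 FPKM in testis cells. For these the lung cells lay at the bottom of the testis range or under it, and the differences without cells 2 and 3 were -2.93 and -3.73. Cdh11, a mesenchymal cadherin, had 20.6, 0, 0.0484 and 5.38 FPKM in lung cells and 5.45, 31.1 and 99.9 FPKM in testis cells, with cell 1 alone inside the testis range. S100a4, another calcium-binding protein of fibroblasts, was lower over the 4 cells with 366, 7.21, 0 and 3.9 FPKM in lung cells, against 0.416, 63.1 and 212 FPKM in testis cells, and yet cell 1 was above every testis cell. The lower members also included Fstl1, a follistatin-like glycoprotein, and Prrx1, a homeobox factor of limb and stromal mesenchyme, with a difference of -2.23 for Fstl1. Prrx1 had 0, 0, 0 and 15.8 FPKM in lung cells, against 0, 10.5 and 74.4 FPKM in testis cells, so cell 4 was the only lung cell above 0.

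The members higher in lung were Nt5e and Timp3. Nt5e, the ecto-5'-nucleotidase CD73 of stromal cells, had 0, 539, 367 and 21.4 FPKM in lung cells, against 0, 1.78 and 40.6 FPKM in testis cells, and cells 2 and 3 were above the highest testis cell. Timp3, a matrix-bound inhibitor of metalloproteinases, had 377, 566, 295 and 59.5 FPKM in lung cells, against 4.4, 35.3 and 138 FPKM in testis cells. Cells 1 to 3 exceeded every testis cell in Timp3 and cell 4 lay in the upper part of their range; without cells 2 and 3 the difference was 1.94.

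Contractile genes also split the lung cells. The contractile score was 5.80, 3.74, 3.07 and 6.38 in lung cells, against 5.19, 5.94 and 6.64 in testis cells and 1.49, 1.76 and 2.41 in stem cells. Cells 1 and 4 lay inside the testis range, cells 2 and 3 under it and above the stem cells. Of 22 members past the filter none was higher in lung and 5 were lower, against 1.58% and 4.85% of all tested genes. The median was -0.96. Without cells 2 and 3 the count was 2 higher and 0 lower, against 4.1% and 5.03% of all genes, and the median -0.02.

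Tagln, the smooth muscle actin-binding protein transgelin (chromosome 9, 45929628 to 45936058, GRCm38), had 4201, 452, 4.21 and 4902 FPKM in lung cells, against 1553, 3597 and 6669 FPKM in testis cells. Lung cells 1 and 4 were above the testis median and cell 3 had almost none. Calponin 1, the product of Cnn1, had 80.3, 1.49, 0.803 and 113 FPKM in lung cells and 18.3, 135 and 546 FPKM in testis cells. Tpm2, a muscle tropomyosin, had 394, 26.7, 0.494 and 559 FPKM in lung cells and 236, 377 and 847 FPKM in testis cells. Cav1, the scaffold of caveolae, had 131, 0.827, 0.754 and 71.4 FPKM in lung cells and 14.1, 117 and 266 FPKM in testis cells. In each of these cells 1 and 4 lay within the testis range, and cells 2 and 3 under its lowest cell, by differences over all 4 cells of -2.98 for Tagln, -3.16 for Cnn1, -2.85 for Tpm2 and -3.03 for Cav1. The fifth lower member was Csrp2, a LIM protein of smooth muscle, with 45.6, 8.67, 0.418 and 10.8 FPKM in lung cells and 0, 58.4 and 317 FPKM in testis cells.

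Not every gene of the list followed this split. Myl9, a regulatory light chain of myosin, had 353, 315, 569.9 and 1339.5 FPKM in lung cells, against 313, 829 and 2196 FPKM in testis cells, and every lung cell was within the testis range. Tpm1, another tropomyosin, had 2087, 260.1, 1509.5 and 2660.0 FPKM in lung cells and 1010.0, 1916 and 5001 FPKM in testis cells, with only cell 2 outside that range. The 2 members higher in lung cells 1 and 4 were the smooth muscle genes Actg2 and Des. Actg2, enteric smooth muscle actin, had 65.8, 0, 0.594 and 1029.8 FPKM in lung cells and 0, 114 and 2849 FPKM in testis cells. Des, the muscle filament desmin, had 90.8, 0, 0.0847 and 11.7 FPKM in lung cells and 0, 8.06 and 245 FPKM in testis cells. In both genes the testis cells spread from 0 to above the lung cells, so the groups overlapped.

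**Figure D3:**
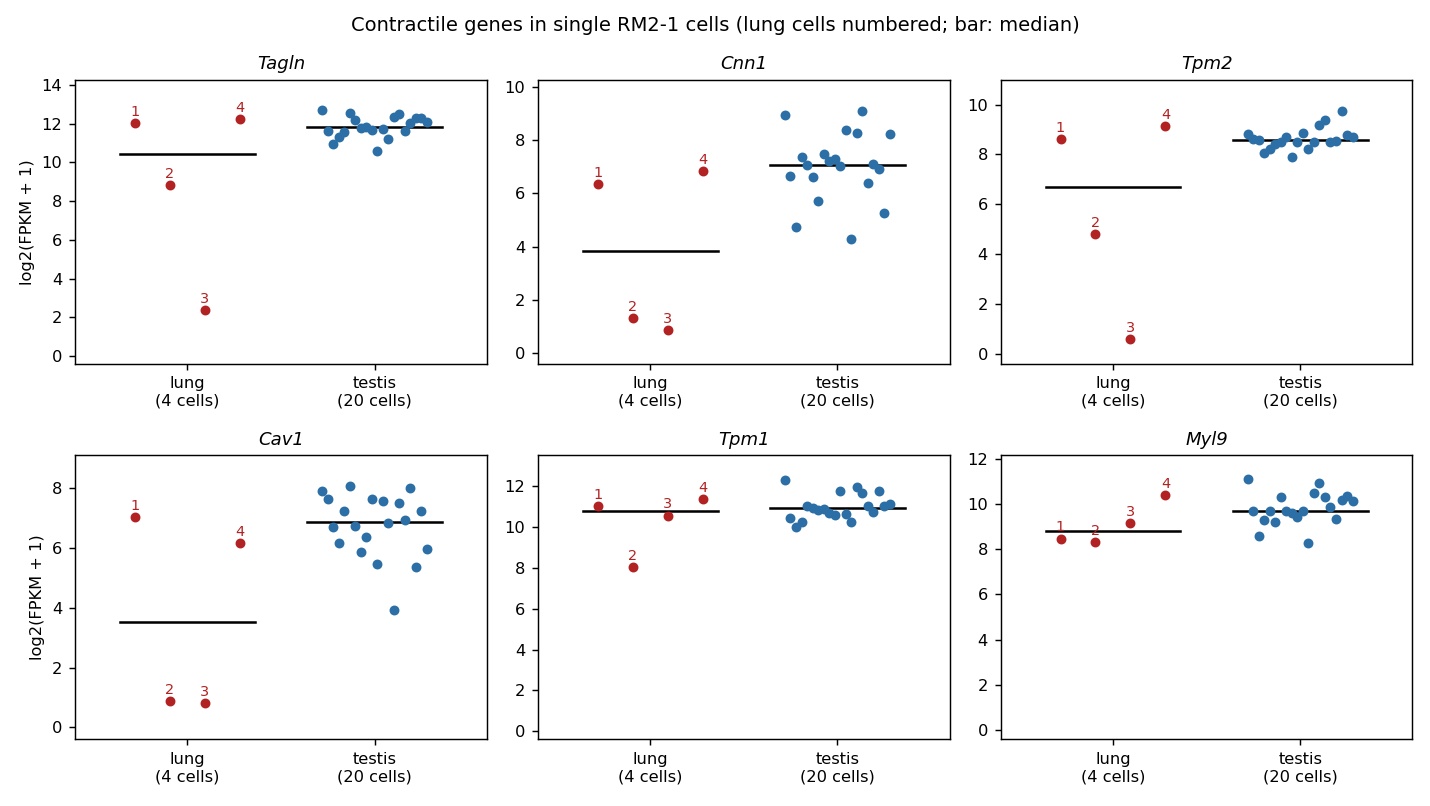
log2(FPKM + 1) (y axes) of 6 contractile genes in single cells, with the 4 lung cells (numbered) left of the 20 testis cells; bars are medians. Lung cells 2 and 3 lie under all testis cells for Tagln, Cnn1, Tpm2 and Cav1, and all 4 lung cells lie among the testis cells for Myl9.

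The lung cells lay in the lower part of the testis range or under it for stress fibre genes and targets of the SRF and YAP transcription pathways. The score of that list was 5.72, 4.33, 5.05 and 5.42 in lung cells, against 5.05, 6.10 and 6.76 in testis cells. Of its members 3 of 17 were lower, against 4.85% of all tested genes. Its median was -0.66 and, without cells 2 and 3, -0.52. Ankrd1, an ankyrin-repeat protein switched on by stretch and YAP, had 9.22, 0.203, 0.203 and 10.9 FPKM in lung cells, against 0.33, 224 and 1221 FPKM in testis cells. All 4 lung cells were far under the testis median. Actb, cytoplasmic beta-actin and among the most abundant transcripts, had 7247, 6768, 8892 and 17259.9 FPKM in lung cells, against 14470.4, 20314 and 30710.0 FPKM in testis cells, with cells 1 to 3 under the lowest testis cell. The other lower members were Fhl1, a LIM protein of muscle, at -2.46 and Myh10, a non-muscle myosin, at -2.07. Cyr61, a secreted YAP target, was not lower, with 727, 799, 529.5 and 989 FPKM in lung cells and 147, 611 and 1611 FPKM in testis cells, all inside the testis range.

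Fibrillar collagen genes were again low in cells 2 and 3, with an exception. Of 24 fibrillar matrix genes past the filter 4 were lower in lung and 0 higher, against 4.85% and 1.58% of all tested genes. The median of the list was -0.89. Col1a1, a chain of type I collagen, had 325, 12.8, 0 and 36.7 FPKM in lung cells, against 60.3, 142 and 289 FPKM in testis cells. Its partner chain Col1a2 had 116, 0.0333, 0.133 and 46.8 FPKM in lung cells, against 31, 104 and 161 FPKM in testis cells. For Col1a1 cell 1 was above every testis cell and cell 4 under every testis cell. For Col1a2 both lay within the testis range, cell 1 above the median and cell 4 under it. Cell 3 had almost no transcript of either chain. Col3a1, the type III collagen, ran the other way, with 42.9, 278, 182 and 8.58 FPKM in lung cells, against 8, 34.6 and 121 FPKM in testis cells, so that cells 2 and 3 were above every testis cell. Lox, which cross-links collagen, had 138, 0.141, 2.92 and 22.1 FPKM in lung cells and 11.1, 57.7 and 132 FPKM in testis cells. Fbln5, an elastic fibre protein, had 25, 0, 0 and 0 FPKM in lung cells and 0.0216, 19.2 and 111 FPKM in testis cells, and cell 1 was the only lung cell above 0. The most abundant members, Bgn and Pcolce, a proteoglycan and an enhancer of procollagen cleavage, differed by -1.33 and -1.13. Without cells 2 and 3, Pcolce was the lower gene of the list at -2.58 and the proteoglycan gene Aspn, found in cell 4 alone, the higher.

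Expression of cell division genes was high in lung cell 4 and low in the other 3. The mitosis score was 0.87, 0.12, 0.16 and 3.81 in lung cells, against 0.35, 2.78 and 6.82 in testis cells and 4.36, 5.25 and 6.41 in stem cells. The S phase score was 1.78, 0.86, 0.67 and 4.81 in lung cells, against 1.18, 3.36 and 5.55 in testis cells and 4.95, 5.54 and 5.97 in stem cells. Cell 4 was above 16 of 20 testis cells for mitosis and 19 of 20 for S phase, while cells 2 and 3 were under all of them in both scores. The testis cells themselves spread widely in both scores, and the stem cells had high scores for mitosis although their label is G0/G1.

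Where 4.85% of all tested genes were lower in lung and 1.58% higher, 5 of 26 mitosis genes past the filter were lower and none higher. Of 23 S phase genes 5 were lower and none higher. The medians were -1.70 for mitosis and -1.26 for S phase. Without cells 2 and 3 the medians were -0.16 and 0.30. Of 26 mitosis genes 3 were then still lower and 1 higher, and of 23 S phase genes 1 was lower and 0 higher. Among all genes 5.03% were then lower and 4.1% higher. Top2a, which untangles replicated DNA, had 0.073, 0.107, 0.0694 and 117 FPKM in lung cells, against 0, 1.48 and 131 FPKM in testis cells. Ube2c, which directs cyclin B to destruction at anaphase, had 2.66, 0, 0.177 and 149.9 FPKM in lung cells and 0, 29.7 and 718 FPKM in testis cells. Cdk1, the kinase of mitotic entry, had 34.4, 0, 0 and 84.3 FPKM in lung cells and 0, 26.4 and 397 FPKM in testis cells. Cell 4 held the highest lung value for each of these, and cells 2 and 3 had next to nothing. Mki67, the proliferation antigen Ki-67, had 0, 0, 0 and 11 FPKM in lung cells and 0, 1.01 and 25.2 FPKM in testis cells.

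Cell 4 was also the highest lung cell for most replication genes named here. Pcna, the sliding clamp of DNA polymerase, had 52.1, 4.75, 14.8 and 487 FPKM in lung cells, against 8.92, 85.3 and 393 FPKM in testis cells, and cell 4 was above the highest testis cell. Tyms, which makes thymidylate, had 2.56, 1.95, 1.04 and 81.8 FPKM in lung cells, against 2.54, 41.9 and 130.3 FPKM in testis cells. Uhrf1, which brings the maintenance methyltransferase to replicated DNA, departed from this, with 1.08, 0, 0 and 0 FPKM in lung cells, against 0, 15.4 and 66.2 FPKM in testis cells, so that even cell 4 was at 0. Kif20a, Ckap2 and Cenpa, which encode a kinesin of cytokinesis, a spindle protein and the centromeric histone, were the mitosis genes with the largest differences and were low in cell 4 too. Their differences were -2.95, -2.62 and -2.27, and cell 4 had 3.86 FPKM, 0.05 FPKM and 0 FPKM of them, against testis medians of 14.4 FPKM, 9.04 FPKM and 2.26 FPKM.

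Some regulators of the G1 phase and of cell cycle arrest were lower in lung. Cdkn1a, the p53-induced inhibitor p21, had 19.7, 0.0886, 0.265 and 0.0654 FPKM in lung cells, against 0.757, 48.4 and 152 FPKM in testis cells. Ccnd1, the G1 cyclin D1, had 2.55, 2.08, 2.84 and 0 FPKM in lung cells, against 0, 23.6 and 106 FPKM in testis cells. All 4 lung cells lay under the testis median of both genes. Both stand in the list of cell cycle inhibitors, although Ccnd1 is a cyclin and not an inhibitor. Of the 15 genes of that list past the filter 3 were lower in lung and 0 higher, against 4.85% and 1.58% of all tested genes. The third was Gadd45g, a stress-induced growth arrest gene, with a difference of -2.70. The list median was -0.71. In all 9 members had a difference under 0 and 6 above it, close to the 59.6% of all tested genes that lay below 0. Tob1, an antiproliferative protein, was among the 6 above, with 33.6, 75.7, 37.3 and 4.87 FPKM in lung cells and 0, 10.3 and 51.1 FPKM in testis cells.

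**Figure D4:**
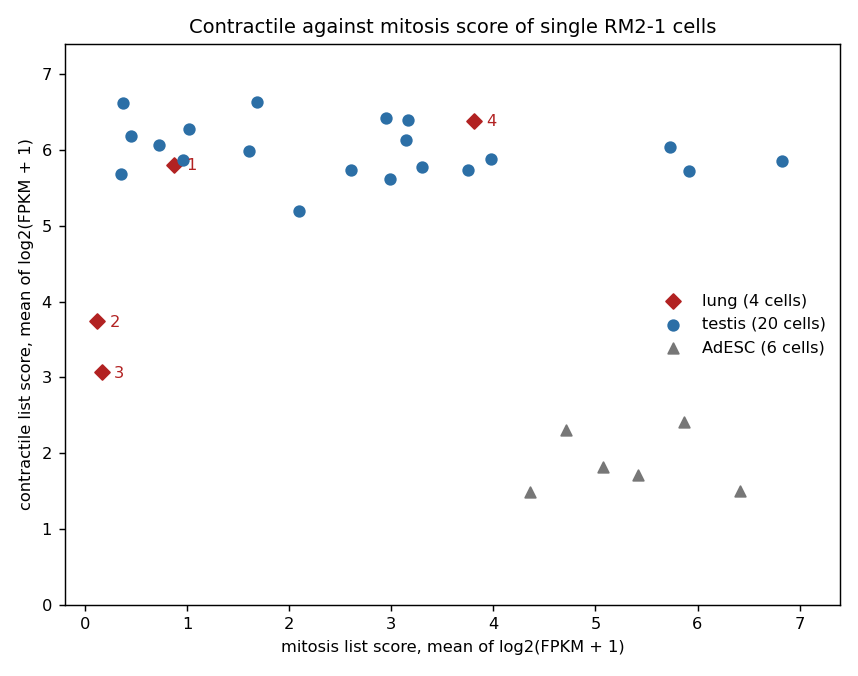
Contractile list score (y axis) against mitosis list score (x axis), both as means of log2(FPKM + 1), of 4 lung cells (diamonds, numbered), 20 testis cells (circles) and 6 AdESC cells (triangles). Testis cells keep a contractile score above 5 over the whole range of mitosis scores, lung cells 1 and 4 lie among them, lung cells 2 and 3 are low in both, and the stem cells are high in mitosis and low in contractile score.

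Among the 20 testis cells the contractile and mitosis scores ran at Pearson's r = -0.25, given as a description of cells that share a sample and a preparation; the mitosis score went with the number of genes at 1 FPKM or more at r = 0.34. Every testis cell, whatever its mitosis score, had a contractile score of at least 5.19, and lung cell 4 had both scores within the testis range.

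Steroidogenic genes set lung cells 2 and 3 apart. Cyp11a1, the side-chain cleavage enzyme (chromosome 9, 57998024 to 58027031), had 0, 2242, 1868 and 0 FPKM in lung cells, against 0, 0 and 0.45 FPKM in testis cells. Outside the lung sample it did not pass 5.89 FPKM in any of the 83 other single cells of the series. Star, which carries cholesterol into mitochondria, had 0, 392, 17.9 and 0.108 FPKM in lung cells, against 0, 0.31 and 119 FPKM in testis cells. Cell 2 was above every testis cell for Star, cell 3 stood within the range of the testis cells, and cells 1 and 4 were at or near 0. The electron donors of the side-chain cleavage enzyme were uneven. Fdx1, ferredoxin 1, had 0.596, 15.5, 72 and 0.448 FPKM in lung cells, against 0, 4.38 and 19.7 FPKM in testis cells. Fdxr, its reductase, had 2.9, 82, 0 and 0 FPKM in lung cells, against 0, 0 and 19.4 FPKM in testis cells. Cell 3 was the highest of all for Fdx1 and cell 2 for Fdxr.

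Several gonadal and adrenal regulators followed the same cells. Inha, the alpha subunit of the hormone inhibin (chromosome 1, 75507077 to 75510366), had 0, 216, 176 and 0 FPKM in lung cells and was listed at 0 in all 20 testis cells. Mrap, which brings the adrenocorticotropic hormone receptor to the cell surface, had 0, 46.2, 111 and 0 FPKM in lung cells, against 0, 0 and 7.77 FPKM in testis cells. Akr1cl, of the aldo-keto reductase family, had 0, 184, 228 and 0 FPKM in lung cells, against 0, 0 and 1.95 FPKM in testis cells. For these 3 genes cells 2 and 3 were above all testis cells and cells 1 and 4 were at 0. Gata4, a zinc finger factor of gonadal somatic cells, had 0, 31, 72.2 and 0.154 FPKM in lung cells and 0.0391, 4.02 and 28.1 FPKM in testis cells, with cells 2 and 3 again above all. Nr5a1, the steroidogenic factor SF-1, had 0, 0.278, 42.9 and 0 FPKM in lung cells and 0, 0.525 and 19.5 FPKM in testis cells, so cell 3 alone was high among lung cells. Scarb1, the receptor for high-density lipoprotein, had 0, 89.1, 15.3 and 0.104 FPKM in lung cells and 0, 3.39 and 25.9 FPKM in testis cells, with cell 2 above all. Insl3, a hormone of Leydig cells, had 0, 18.8, 0 and 0 FPKM in lung cells and was at 0 in all testis cells.

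Some genes of later steps of steroid synthesis, and the gene of a gonadal hormone receptor, were at 0. Cyp17a1, Hsd17b3 and Lhcgr, the 17-hydroxylase, the testosterone-making reductase and the luteinizing hormone receptor, were listed at 0 in all lung cells and all testis cells. Of the 14 genes of the steroidogenic list past the filter 1 was higher in lung, Cyp11a1, and 0 were lower. Among all tested genes 1.58% were higher and 4.85% lower. Of the 14, 12 were above 0, against 40.4% of all tested genes, and the list median was 0.73. Cyp11a1 and Insl3, both among the 12, were at or near 0 in all testis cells. They passed the filter only through lung cells where they were high, and so could only lie above 0. The count of 12 is thus partly set by the filter. Without cells 2 and 3, 12 genes passed the filter and the list median was -0.21. The score was 1.64, 3.35, 2.84 and 1.57 in lung cells, against 1.24, 1.78 and 2.26 in testis cells, and cells 2 and 3 were above all 20. Among genes of general cholesterol handling, Tspo and Soat1 did not share this order, while Scarb1, given above, was highest in cells 2 and 3 among lung cells. Tspo, a cholesterol-binding protein of the mitochondrial outer membrane, had 135, 144, 62.4 and 132 FPKM in lung cells, against 19.9, 67.1 and 293 FPKM in testis cells, with all 4 lung cells in range. Soat1, which esterifies cholesterol, had 87, 26.3, 52.6 and 41.3 FPKM in lung cells, against 33.9, 89.7 and 191 FPKM in testis cells, and all 4 lung cells were under the testis median.

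Marker lists of testicular cell types did not all follow this pattern. The Leydig list, whose summed values are given above, had Cyp17a1, Hsd17b3, Lhcgr and Agtr1a at 0 in all lung cells. The Sertoli list, with 22 of 24 genes measured, summed to 2349, 2739, 7251 and 788 FPKM in lung cells and to between 295 and 3422 FPKM in testis cells, and in lung cells 1 to 3 most of it came from Clu. By the sum cells 1 and 2 were alike and within the testis range, and by the score cells 2 and 3 were above all 20 testis cells. Of its 22 genes 13 were at 0 in all lung cells, the defining Amh, Dhh and Fshr among them. The peritubular myoid list, which shares most of its genes with the contractile list, ran the other way, with a score of 4.56, 3.05, 1.89 and 5.71 in lung cells and 4.24, 4.79 and 5.78 in testis cells, so that cells 2 and 3 were under all 20 and cells 1 and 4 within their range. The part of these cell types in the result was not tested.

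**Figure D5:**
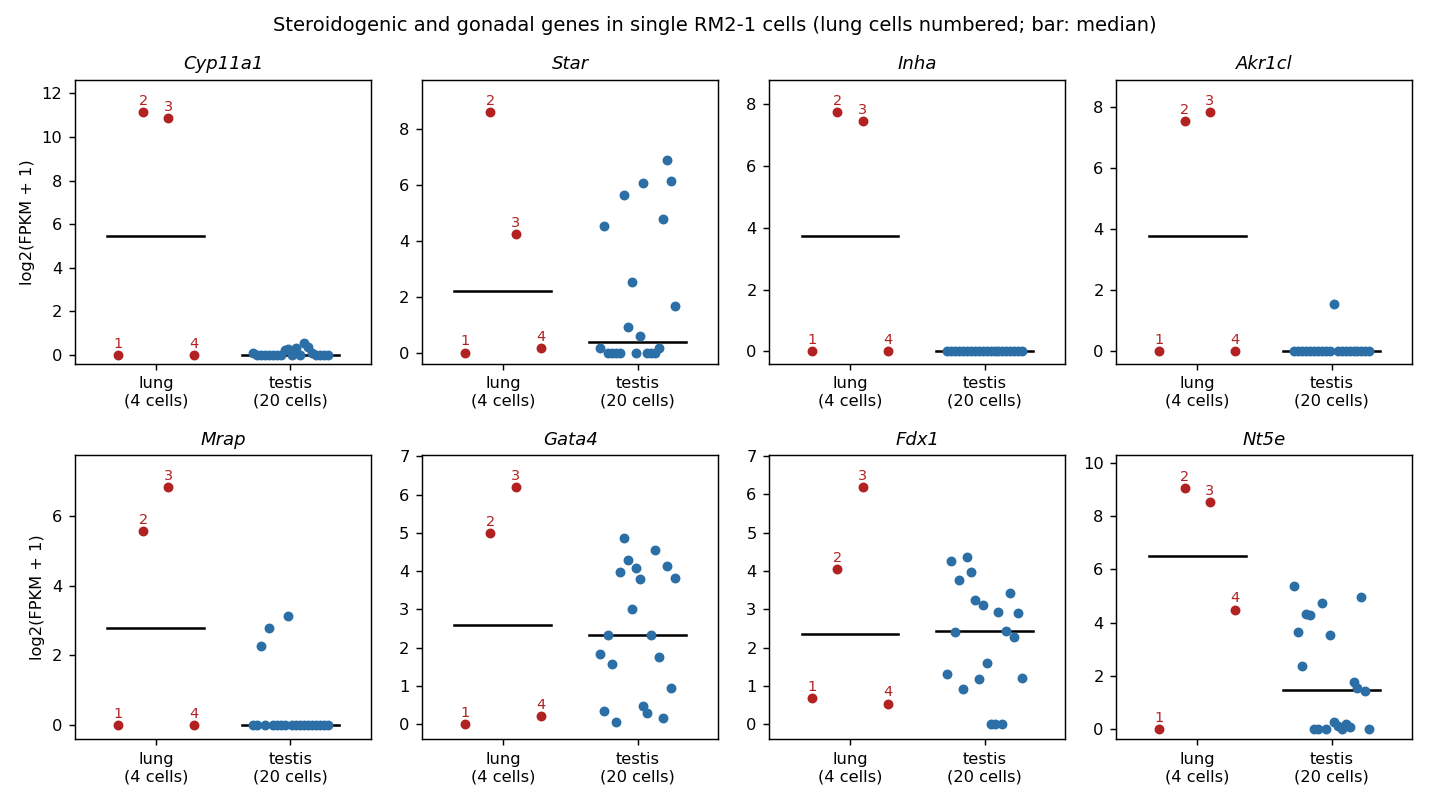
log2(FPKM + 1) (y axes) of 8 steroidogenic, gonadal or surface genes in single cells, with the 4 lung cells (numbered) left of the 20 testis cells; bars are medians. Lung cells 2 and 3 are above all testis cells for Cyp11a1, Inha, Akr1cl, Mrap, Gata4 and Nt5e, and lung cells 1 and 4 are at or near 0 for each of these except Nt5e, where cell 4 has 21.4 FPKM.

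The wider profile of cells 2 and 3 was large. Both were above the highest testis cell in 192 of 7478 genes and below the lowest in 292, against 22 and 35 genes for cells 1 and 4 and between 47 and 59 and between 79 and 91 for the other pairs of lung cells. The genes with the largest differences, named after their values were seen, included Sepp1, the plasma selenoprotein P, with 0, 157, 1739 and 50.7 FPKM in lung cells and 0, 0.0988 and 29.98 FPKM in testis cells. Aldh1a1, a retinal dehydrogenase, had 1.83, 50.1, 1766 and 0.0615 FPKM in lung cells, against 0, 0 and 0.222 FPKM in testis cells. Mgst1, a microsomal glutathione transferase, had 33.7, 795, 1214 and 37.2 FPKM in lung cells, against 0, 14.9 and 167 FPKM in testis cells. In each of these 3 genes cells 2 and 3 were above all testis cells. So were cell 4 for Sepp1 and, at a low level of 1.83 FPKM, cell 1 for Aldh1a1. Clu, a secreted chaperone of many tissues, had 1914, 2084, 6451 and 19.7 FPKM in lung cells, against 5.86, 210.1 and 1926 FPKM in testis cells, so cells 2 and 3 exceeded the testis cells here too. Igfbp7, a secreted binding protein, had 20.9, 476, 426 and 81.6 FPKM in lung cells, against 8.89, 68.7 and 161 FPKM in testis cells. The unnamed transcript 4930486L24Rik had 0, 786, 816 and 0 FPKM in lung cells, against 0, 0 and 39 FPKM in testis cells, and again cells 2 and 3 stood above. Ptgds, a prostaglandin D synthase, was found in cell 3 alone, at 209.9 FPKM, and was at 0 in all testis cells.

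Cholesterol synthesis genes were higher in lung, and most so in cells 1 and 4. The score was 4.11, 4.00, 2.62 and 4.33 in lung cells, against 1.25, 2.37 and 4.03 in testis cells and 2.76, 3.18 and 4.52 in stem cells. Cells 1 and 4 were above all 20 testis cells, cell 2 above 19 of them and cell 3 above 14. Of 16 members past the filter 3 were higher in lung and 0 lower, against 1.58% and 4.85% of all tested genes. A difference above 0 was found in 14 of the 16, where 40.4% of all tested genes lay above 0 and 59.6% below. Without cells 2 and 3, 8 of 16 were higher, against 4.1% of all genes, and the median was 1.97.

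The 3 genes past the fold, Hmgcs1, Lss and Nsdhl, act at the start of the pathway and in its later steps. Hmgcs1, which makes HMG-CoA at its start, had 118, 58.2, 31.3 and 114 FPKM in lung cells, against 0.0501, 20.3 and 121 FPKM in testis cells. Idi1, which isomerises the isoprenoid unit, had 55, 62.4, 0.0574 and 139 FPKM in lung cells, against 0, 5.5 and 70.6 FPKM in testis cells. Fdps, the farnesyl diphosphate synthase and the most abundant member, had 204, 118, 236 and 297 FPKM in lung cells, against 5.57, 72.4 and 398 FPKM in testis cells. Lung cells 1 and 4 were above the testis median in each of these, and cell 4 exceeded every testis cell in Idi1. Of the later steps, Lss, which closes the sterol rings, had 13.3, 30.05, 13.1 and 0.126 FPKM in lung cells, against 0, 0 and 13.7 FPKM in testis cells. Nsdhl, a sterol dehydrogenase, had 21.5, 51, 35.9 and 38.3 FPKM in lung cells, against 0, 4 and 157 FPKM in testis cells. Sc4mol, a methylsterol oxidase, had 185, 140.3, 55.9 and 290.5 FPKM in lung cells, against 0.774, 49 and 231 FPKM in testis cells. All 4 lung cells were above the testis median for Nsdhl and Sc4mol. For Lss the testis median was 0, and lung cell 4, at 0.126 FPKM, was near it. The 8 genes past the fold in cells 1 and 4 were Hmgcs1, Idi1, Sc4mol, Nsdhl, Mvd, Fdft1, Cyp51 and Insig1.

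A few stromal and gonadal interstitial genes were lower in lung, and the score was low in cells 2 and 3. The score was 1.62, 0.78, 1.08 and 2.13 in lung cells, against 1.01, 2.06 and 2.76 in testis cells and 0.43, 0.57 and 0.75 in stem cells. Of 19 members past the filter 4 were lower in lung and 0 higher, against 4.85% and 1.58% of all tested genes. The median was -0.81. In cells 1 and 4 alone 1 of 17 was lower (Nr2f2) and 1 higher (Fst, the activin inhibitor follistatin). Among all genes tested in those cells 5.03% were lower and 4.1% higher. The list median was then -0.12, and cell 4 was above the testis median of the score. Besides Col1a2, the genes lower over all 4 cells were Inhba, Nr2f2 and Mdk. Inhba, the activin A subunit, had 20.6, 8.38, 0.502 and 176 FPKM in lung cells, against 4.39, 134 and 345 FPKM in testis cells, and cell 4 alone was above the testis median. Nr2f2, the interstitial nuclear receptor COUP-TFII, had 15.3, 0.0518, 18.7 and 0 FPKM in lung cells, against 0.312, 27.2 and 87.2 FPKM in testis cells. Mdk, the growth factor midkine, had 82.4, 0, 0 and 6.52 FPKM in lung cells, against 0, 50.3 and 134 FPKM in testis cells. Other interstitial genes were found mainly in cell 4. Tcf21, a basic helix-loop-helix factor of stromal progenitors, had 0, 0, 0.149 and 15 FPKM in lung cells and 0, 1.5 and 53.5 FPKM in testis cells. Dcn, which encodes the proteoglycan decorin, had 0, 0.306, 0.305 and 81.5 FPKM in lung cells and 0, 3.84 and 117 FPKM in testis cells. Cxcl12, a chemokine of stromal niches, was present in every cell, with 25.6, 20.00, 124 and 88.2 FPKM in lung cells and 8.73, 98.2 and 420.0 FPKM in testis cells.

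Lung cells 1 and 4 also differed from each other. Cell 1 alone among lung cells held mesothelial genes. Wt1, a zinc finger factor of mesothelium and of Sertoli cells, had 16.9, 0, 0 and 0 FPKM in lung cells and 0, 1.83 and 52.4 FPKM in testis cells. Msln, the surface protein mesothelin, had 18.9, 0, 0 and 0 FPKM in lung cells and 0, 0 and 104 FPKM in testis cells. Bnc1, the zinc finger protein basonuclin 1, had 10.1, 0, 0 and 0 FPKM in lung cells and 0, 0 and 0.813 FPKM in testis cells, the only one of the 3 in which cell 1 exceeded every testis cell. The retinoid enzyme Aldh1a2, which makes retinoic acid, had 404, 0, 0.0854 and 52.7 FPKM in lung cells, against 0, 0 and 314 FPKM in testis cells. Cell 1 was above every testis cell for Aldh1a2. Cell 4 alone held Rgs5, a pericyte gene, at 21.5 FPKM, and the proteoglycan gene Aspn at 43.9 FPKM, which were at 0 in all testis cells. Of 5 pericyte genes past the filter 1, Rgs5, had a difference above 0 and 4 below, against 40.4% and 59.6% of all tested genes. Without cells 2 and 3, 2 of 5 were higher and 0 lower, against 4.1% and 5.03% of all genes. The pericyte score of cell 4, 1.58, lay within the testis range of 0.38 to 1.78.

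Cell 4 also had the highest levels of Ccl2 and Cxcl1 among the lung cells. Ccl2, which attracts monocytes, had 95, 22.1, 4.81 and 15875 FPKM in lung cells, against 3.43, 411 and 6350.2 FPKM in testis cells, so cell 4 exceeded every testis cell and cells 1 to 3 were near the bottom of the range. The next chemokine kept that order of lung cells. Cxcl1, which attracts neutrophils, had 4.54, 1.24, 0.705 and 444 FPKM in lung cells, against 0.129, 103 and 1695 FPKM in testis cells. Csf1, the macrophage growth factor, had 14.2, 0.364, 0.312 and 115 FPKM in lung cells, against 0.277, 61.4 and 229.9 FPKM in testis cells. These 3 genes were the lower ones of the 13 chemokine and complement genes past the filter, and 2 others were higher. Among all tested genes 4.85% were lower in lung and 1.58% higher. In cells 1 and 4 alone 2 of 12 list genes were higher and 0 lower, against 4.1% and 5.03% of all genes. The list median was then 0.06, and the difference of Ccl2 turned to 1.29, against -2.08 with all 4 cells. The higher genes were Vcam1 and Serping1. Vcam1, an adhesion receptor for leukocytes, had 15.1, 0.097, 6.92 and 9.16 FPKM in lung cells, against 0, 0.077 and 13.4 FPKM in testis cells. Serping1, the inhibitor of complement C1, had 66.7, 0, 39.5 and 50.7 FPKM in lung cells, against 0, 0.317 and 43.6 FPKM in testis cells. Cells 1, 3 and 4 were above 18 or more testis cells for Serping1, and cell 2 was at 0.

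Some genes separated all 4 lung cells from most or all testis cells. The 5 without overlap, all lower in lung, were Foxs1, Maea, Cs, Epb4.1l3 and Limd2. Foxs1, a forkhead factor of mural cells (chromosome 2, 152931898 to 152933208), had 6.99, 0, 0 and 0.108 FPKM in lung cells, against 9.21, 31.1 and 122 FPKM in testis cells. Maea, part of a ubiquitin ligase, had 0.2, 9.25, 3.89 and 18.3 FPKM in lung cells, against 18.3, 48.7 and 125 FPKM in testis cells, where lung cell 4 and the lowest testis cell were almost equal. Cs, the citrate synthase of the Krebs cycle, had 20.3, 19.5, 0.353 and 46.4 FPKM in lung cells, against 50.1, 101 and 223 FPKM in testis cells. Foxs1 had the largest difference of these, -4.31, with lung cells 2 to 4 at or near 0. Epb4.1l3, a membrane skeleton protein, and Limd2, a LIM protein, did not pass 0.174 FPKM and 0.349 FPKM in a lung cell and had testis medians of 8.49 FPKM and 3.27 FPKM.

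Other genes were low in every lung cell but overlapped the lowest testis cells. Tubb3, a tubulin best known from neurons, had 0.208, 0.198, 0.101 and 0.229 FPKM in lung cells, against 0, 40.7 and 364 FPKM in testis cells. Cthrc1, a secreted protein of remodelling mesenchyme, had 0.291, 0, 0.141 and 0 FPKM in lung cells, against 0, 43.7 and 139.8 FPKM in testis cells. Serpinf1, the secreted factor PEDF, had 0.113, 0.11, 0 and 0.0885 FPKM in lung cells, against 0, 27.1 and 333 FPKM in testis cells. None of the 4 lung cells reached 1 FPKM in these 3 genes, while 17, 18 and 13 of the 20 testis cells did. Ckb, brain-type creatine kinase, had 8.29, 0, 0.124 and 1.33 FPKM in lung cells, against 0, 102 and 243 FPKM in testis cells. In all, 227 of the 363 lower genes had all 4 lung cells under the testis median.

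Among genes higher in lung, 50 of the 118 had all 4 lung cells above the testis median. Akr1e1, an aldo-keto reductase (chromosome 13, 4591123 to 4609164), had 25.9, 44.9, 61.8 and 29.2 FPKM in lung cells, against 0, 0.38 and 31.2 FPKM in testis cells. Every lung cell was above 18 or more of the 20 testis cells. Actr6, an actin-related chromatin protein, had 21, 77.4, 131 and 55.6 FPKM in lung cells, against 0, 6.49 and 71.1 FPKM in testis cells. Nanp, a phosphatase of sialic acid synthesis, had 18.3, 89.2, 19.6 and 32.4 FPKM in lung cells, against 0, 2.84 and 33.2 FPKM in testis cells. Cells 2 and 4 were near or above the top of the testis range for Nanp. Tcn2, the vitamin B12 carrier transcobalamin 2, had 15.6, 91.9, 90.1 and 29.7 FPKM in lung cells, against 0, 2.71 and 41.9 FPKM in testis cells. Without cells 2 and 3, 14 genes (0.193%) were higher and 26 (0.359%) lower, 0.552% in all, with no overlap between lung cells 1 and 4 and the testis cells. The largest of these with a mean of at least 10 FPKM were Serpinb2 and Hspb6, chosen after their values were seen. Serpinb2, a plasminogen activator inhibitor, had 28, 6.85, 0 and 36.9 FPKM in lung cells and 0, 0 and 10.4 FPKM in testis cells. Hspb6, a small heat shock protein of muscle, had 0, 28.5, 68.7 and 0 FPKM in lung cells and 12.3, 57.8 and 146.04 FPKM in testis cells. Cells 1 and 4 were above all testis cells for Serpinb2 and at 0 for Hspb6, and cells 2 and 3 lay within the testis range of both.

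The remaining lists had few genes past the fold, where 1.58% of all tested genes were higher in lung and 4.85% lower. None of the 26 ribosomal protein genes passed the fold and all 26 had a difference under 0, with a median of -0.42 and, without cells 2 and 3, of -0.06. With all 4 lung cells, the glycolysis (12 genes) and heat shock (14) lists had no gene past the fold, with medians of -0.25 and -0.52. Of 20 TGF-beta and BMP genes 2 were lower (Inhba and Ltbp2), of 18 immediate early genes 1 (Dusp6), of 6 IGF axis genes 1 (Igfbp6), and of 6 retinoid genes 1 was higher (Aldh1a1) and 0 lower. With all 4 lung cells, no gene of the basement membrane (6), HOX (4) or imprinted (5) lists passed the fold. Without cells 2 and 3, 1 of 7 basement membrane, 1 of 4 HOX and 1 of 14 heat shock genes were higher and 0 lower. Among all genes 4.1% were then higher and 5.03% lower. The basement membrane median was then 0.80. Its score was 2.24, 1.22, 0.57 and 2.47 in lung cells, against 1.20, 1.78 and 2.23 in testis cells. Lung cells 1 and 4 were above all 20. The retinoid score was also high in lung, with cells 1, 2 and 4 above all 20 testis cells and cell 3 above 17. Of its 6 genes past the filter 5 had a difference above 0 and 1 below, against 40.4% and 59.6% of all tested genes. The retinoid median was 0.78 with all 4 lung cells and 1.53 without cells 2 and 3.

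Against their own stem cells, which both comparisons share, lung and testis cells differed in the same direction in the mesenchymal, contractile and mitosis lists. In lung 702 of 7640 genes (9.19%) were higher and 1267 (16.6%) lower than in AdESC cells, and in testis 717 of 7788 (9.21%) were higher and 722 (9.27%) lower. Of mesenchymal genes past the filter 16 of 28 were higher in lung than in stem cells and 20 of 32 in testis. Of contractile genes 12 of 21 were higher in lung and 16 of 21 in testis. Of mitosis genes 25 of 26 were lower in lung and 19 of 26 in testis. Of 16 cholesterol synthesis genes 2 were higher and 0 lower in lung, and 0 were higher and 5 lower in testis. Tagln was at 0, 0 and 0.171 FPKM (lowest, median and highest) in the stem cells, and Vim at 0, 0.163 and 85.6 FPKM (lowest, median and highest).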

How the data were processed

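The deposited values are FPKM per gene and cell, made by the authors with TopHat2 2.0.10 and Cufflinks 2.1.1 after FastQC 0.10.1, on the mouse build mm10 and the rat build rn5, per the submitters' processing notes. How mouse and rat reads were joined into 1 value for a pair of homologues is not given in the sources used here. FPKM keeps no read count, so depth and counting error are unknown.

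Columns were matched to samples by their names, and cells were numbered in column order. FPKM was used as deposited, as log2(FPKM + 1). The difference is the lung mean minus the testis mean. Genes with a mean of both group means of at least 1 FPKM were tested against a fold of 4, which is a log2 difference of 2. No significance test was made, since each group is 1 sample and cells are not replicates. No spread between samples exists, and the spread given is that between cells.

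Genes were named by rule: those without overlap of cells and with a mean of at least 10 FPKM, up to 10 in each direction, and in each of 34 lists, 13 of them marker lists, the 4 largest differences and the 2 highest means, plus defining markers. Values are given for the named genes that the results turn on, and other genes were chosen after their values were seen. The lists and the groups were chosen with earlier results of these data known. Symbols were matched to RefSeq GRCm38.p6 for coordinates, 13295 by symbol and 606 by synonym, with 25 unmatched. The calculation was tested on simulated data. Alternatives were another pseudocount, another order of averaging, 2 rescalings, other filters, each cell left out in turn and another testis sample. Acta2, Sox9, Sftpb, Krt8, Krt18, Hsd3b1 and Hsd3b6 were not analysed here, and a few other genes are not reported here and were left out of the lists. Python 3.11.15 was used with numpy 2.4.6, pandas 2.3.3 and matplotlib 3.10.9.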

Additional observations from a re-analysis of the deposited data

Results flagged for a closer look

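In 31 of the 128 gene levels and scores looked at, 1 of the 4 lung cells lay far from the other 3, the gap to the nearest of them being most of the range of the 4 cells, where chance flags about 1 in 20 groups of normally spread values. Many of these genes had 3 cells at 0 or were named for a large difference, so the share is not set against that rate. Cell 1 was the one apart in 13 of these, cell 4 in 12, cell 3 in 3 and cell 2 in 3. No explanation was tested.

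Cell 1 stood above the others for the mesothelial genes Wt1 at 16.9 FPKM, Msln at 18.9 FPKM and Bnc1 at 10.1 FPKM. It also stood above them for the lung mesenchyme genes Fgf10 at 34.6 FPKM and Tbx5 at 20.6 FPKM. The same held for Fhl1 at 34.6 FPKM, Fbln5 at 24.95 FPKM, Cdkn1a at 19.7 FPKM, Cd68 at 10.9 FPKM and Foxs1 at 6.99 FPKM. At low levels it held for Uhrf1 at 1.08 FPKM, Ckap2 at 0.474 FPKM and Epb4.1l3 at 0.174 FPKM.

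Cell 4 stood above the others for the division genes Top2a at 117 FPKM, Tyms at 81.8 FPKM, Mki67 at 10.97 FPKM and Kif20a at 3.86 FPKM. It did so for the stromal genes Dcn at 81.5 FPKM, Aspn at 43.9 FPKM, Rgs5 at 21.5 FPKM, Prrx1 at 15.8 FPKM, Tcf21 at 15.05 FPKM and Mmp2 at 3.84 FPKM, and for the endothelial gene Emcn at 43.02 FPKM. For Ccnd1 it was the lowest, at 0 FPKM.

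Cell 3 stood above the others for Ptgds at 209.9 FPKM and Nr5a1 at 42.9 FPKM, and below them for Tspo at 62.4 FPKM. Cell 2 stood above the others for Insl3 at 18.8 FPKM and, at a low level, Ddx4 at 0.459 FPKM, and below them for Serping1 at 0 FPKM.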

How the results depend on the processing

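The count of 481 genes past the fold was 1652 with a pseudocount of 0.1, 951 with the log2 of the mean FPKM, 480 to 841 with a lung cell left out (841 without cell 1, 839 without cell 4) and 469 to 494 with a testis cell left out. The 5 genes without overlap became 11 to 43 with a lung cell left out, 4 to 7 with a testis cell left out and 40 without lung cells 2 and 3. Summed FPKM scaling brought the median of all tested genes to -0.13, against -0.24, and upper quartile scaling to -0.30; neither rescaling reversed a list score or a gene past the fold. Of values under the fold, upper quartile scaling turned Sparc (0.073) to -0.00097, Nr5a1 (0.091) to -0.0085 and the imprinted median (0.029) to -0.0038, and summed FPKM scaling turned Pdpn (-0.090) to 0.099. Of the list score differences, lung minus testis, the mesenchymal (-1.04) was -1.55 with a pseudocount of 0.1, -0.28 without cells 2 and 3, -1.37 to -0.65 with a lung cell left out and -1.07 to -1.01 with a testis cell left out. The contractile (-1.24) was 0.10 without cells 2 and 3, and -1.79 to -0.68 and -1.28 to -1.21 with a lung or a testis cell left out. S phase (-1.17) was 0.10 without cells 2 and 3, and -2.10 to -0.72 and -1.28 to -1.04. Mitosis (-1.44) was -0.34 without cells 2 and 3 and -2.35 with a pseudocount of 0.1, and ranged from -2.30 to -1.07 and from -1.56 to -1.22. The steroidogenic (0.58) was 1.07 with the log2 of the mean, -0.16 without cells 2 and 3, and 0.25 to 0.85 and 0.56 to 0.61. The stromal (-0.61) was -0.14 without cells 2 and 3, and -0.85 to -0.40 and -0.66 to -0.57. With the 4 somatic testis cells of line RM1-1, from a mouse chimaera, in place of the RM2-1 testis cells, the score differences were 0.59 for mesenchymal, 1.73 for contractile, 0.15 for stromal, 1.25 for fibrillar matrix and -1.68 for cholesterol synthesis, all reversed.

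Without cells 2 and 3, 14 named genes reversed: S100a6 0.28, Anxa1 0.34, Fn1 0.71, Cd44 0.31, Fstl1 0.52, Tagln 0.30, Tpm2 0.24, Lox 0.029, Mdk 0.027, Ccl2 1.29, Cyp11a1 -0.10, Akr1cl -0.078, Mrap -0.41 and 4930486L24Rik -0.78. With the log2 of the mean, S100a4 was 0.26 and Ccl2 1.39. Against RM1-1 testis 23 reversed: S100a6 4.16, S100a4 1.17, Anxa1 6.13, Snai1 0.82, Tagln 4.49, Cnn1 2.98, Tpm2 5.37, Ankrd1 1.67, Col1a1 4.33, Col1a2 3.10, Fbln5 0.76, Lox 1.83, Inhba 3.93, Ccl2 5.10, Cxcl1 2.34, Csf1 1.22, Foxs1 0.79, Cthrc1 0.14, Serpinf1 0.11, Nsdhl -1.26, Lss -1.43, Hmgcs1 -2.89 and Vcam1 -0.28. The cause was not tested. The choice to leave out cells 2 and 3 was made after seeing the data. With the log2 of the mean, overlap of cells is not defined and was not counted. No paired analysis was possible because the cell numbers only name cells and no test was made.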

Other observations

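Among the 10 other samples of single cells, each of the 4 lung cells had its highest median Pearson's r with the RM2-1 testis sample. The correlation was taken over the 7478 genes tested. Those genes were chosen by their level in the lung and RM2-1 testis cells, so genes found only in other samples were left out. The ranking therefore does not tell which sample is nearest over all genes. With the RM2-1 AdESC cells the medians were 0.550 for lung cell 1, 0.438 for cell 2, 0.455 for cell 3 and 0.513 for cell 4. Inha did not pass 2.19 FPKM in any of the 83 single cells outside the lung sample and was listed at 0 in 79 of them. In the 4 somatic testis cells of line RM1-1, Tagln had 2.24, 24.4 and 94.6 FPKM as the lowest, median and highest value.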
